A study of Mus musculus with 2 samples.

Results

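The genes described here are the receptors and the enzyme through which the brain senses fever signals: the 4 prostaglandin E2 receptors Ptger1, Ptger2, Ptger3 and Ptger4, the inducible cyclooxygenase Ptgs2, the interleukin receptor genes Il1r1, Il1rap and Il6ra, and the endotoxin receptor Tlr4. They were chosen by symbol, with earlier results of these data known, and are 9 of the 32285 genes in the matrices. All 9 had UMIs (unique molecular identifiers, each standing for 1 captured RNA molecule) in both libraries. Levels were taken from single-nucleus RNA-seq of the hypothalamic preoptic area (POA), the region that sets body temperature. The US+ library came from WT mice that received ultrasound, and the US- library from WT mice given the sham treatment. In each, tissue of 4 mice aged 6 to 9 weeks was pooled about 1 h after stimulation and its nuclei were sorted for the neuronal antigen NeuN, so each condition was 1 library with no replicate. Every difference between US+ and US- therefore compares these 2 libraries, carries no test, and is given with an exact 95% interval that covers counting error only.

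Nuclei with 200 to 7500 genes, at most 5% mitochondrial UMIs and at least 2000 UMIs were kept, which left 9912 of 12075 US+ nuclei with 84857570 UMIs and 11040 of 11725 US- nuclei with 98904011 UMIs. Their median depth was 7376 UMIs in US+ and 7663.5 UMIs in US- nuclei. The neuronal markers Rbfox3, Snap25, Syt1 and Kif5c were all detected in both libraries, Syt1 in 95.7% of US+ and 96.5% of US- nuclei. The libraries differed in makeup: nuclei with at least 3 of 7 striatal markers, which mark neurons of the neighbouring striatum, were 11.2% of US+ and 24.8% of US- nuclei, and nuclei carrying 3 or more marker genes of any 1 non-neuronal cell type made up 5.54% of US+ and 3.12% of US- nuclei. Of the 7 striatal markers, Pde10a had a UMI in 80.1% of US+ and 87.0% of US- nuclei. Nuclei with at least 2 Sim1 UMIs were 5.96% of US+ and 2.41% of US- nuclei, and those with at least 3 Gal UMIs 2.06% and 0.906%. For at least 3 Esr1 UMIs the shares were 10.5% in US+ and 6.35% in US-. Nuclei with at least 2 Lhx6 UMIs went the other way, at 3.95% in US+ and 5.67% in US-. No alternative below left out nuclei by these hypothalamic genes. Of the US+ barcodes 1987 fell under the minimum of 2000 UMIs, against 623 of the US- barcodes. The libraries shared 19 barcodes among nuclei that passed. Transmitter classes were set by marker UMIs. GABAergic nuclei (5087 in US+ and 6703 in US-) had at least 2 UMIs of Gad1, Gad2 or Slc32a1 and none of Slc17a6, Slc17a7 or Slc17a8. Glutamatergic nuclei (1216 in US+ and 1010 in US-) had at least 1 UMI of a Slc17a gene and at most 1 of the GABA genes.

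In fever, endotoxin acts through Tlr4 and the cytokines interleukin-1 and interleukin-6 act on their receptors, largely in blood vessel cells of the brain, and induce cyclooxygenase-2, the product of Ptgs2. The prostaglandin E2 that follows binds receptors on preoptic neurons. Of these, EP3, encoded by Ptger3, is the one that fever in mice is known to need, and neurons of the median preoptic nucleus that carry it control heat production. EP1, EP2 and EP4 are the products of Ptger1, Ptger2 and Ptger4. Ptgs2 also has a separate life in neurons, where it is induced by synaptic activity like an immediate-early gene.

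The promoters of 4 members are shown because the results turn on these genes: Ptgs2, whose level was highest in nuclei with several immediate-early genes, Il6ra, the other member with a ratio above 3 between the libraries, Ptger3, whose level differed widely between classes of nuclei, and Ptger4, whose level hardly did. Sequences are from RefSeq on GRCm38.p6, run from 250 bases before to 50 bases after the annotated start, and were matched for 7 of the 9 members. Capitals mark the letters of a motif, and both strands were searched. The core of the cAMP response element (CRE), which the activity-dependent factor CREB binds, was searched as TGACG. The E-box, bound by basic helix-loop-helix factors, was searched in the form CACGTG. The palindromic site of the C/EBP family, factors of the acute inflammatory response, was searched as TTGCGCAA. The site of AP-1, the dimer of Fos and Jun proteins, was searched as TGANTCA, where N is any base. The TATA box of the core promoter was searched in the form TATAAA. Positions are counted from 1 at the first base of each sequence.
Ptgs2: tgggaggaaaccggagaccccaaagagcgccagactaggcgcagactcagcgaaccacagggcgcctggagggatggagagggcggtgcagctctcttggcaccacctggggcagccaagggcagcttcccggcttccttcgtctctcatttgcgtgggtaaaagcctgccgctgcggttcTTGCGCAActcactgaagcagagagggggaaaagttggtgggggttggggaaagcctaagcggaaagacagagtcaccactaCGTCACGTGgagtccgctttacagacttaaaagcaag
Il6ra: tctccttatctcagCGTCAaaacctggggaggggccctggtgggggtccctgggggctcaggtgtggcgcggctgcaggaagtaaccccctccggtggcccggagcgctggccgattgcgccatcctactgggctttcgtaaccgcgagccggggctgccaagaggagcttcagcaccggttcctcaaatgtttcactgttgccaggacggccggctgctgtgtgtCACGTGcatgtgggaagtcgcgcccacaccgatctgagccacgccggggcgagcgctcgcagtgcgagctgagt
Ptger3: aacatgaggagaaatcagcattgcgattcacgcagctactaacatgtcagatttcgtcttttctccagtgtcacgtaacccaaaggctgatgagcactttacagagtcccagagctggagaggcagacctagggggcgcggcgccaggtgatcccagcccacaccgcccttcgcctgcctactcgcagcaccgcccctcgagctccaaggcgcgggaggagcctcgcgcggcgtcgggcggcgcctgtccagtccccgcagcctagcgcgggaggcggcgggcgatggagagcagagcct
Ptger4: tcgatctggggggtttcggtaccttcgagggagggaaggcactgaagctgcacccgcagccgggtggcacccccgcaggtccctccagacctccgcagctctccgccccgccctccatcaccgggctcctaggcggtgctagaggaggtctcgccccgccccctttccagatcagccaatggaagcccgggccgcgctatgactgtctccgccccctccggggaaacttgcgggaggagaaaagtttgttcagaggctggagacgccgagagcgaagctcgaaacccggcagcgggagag
The Ptgs2 promoter (chr1:150099781-150100080, plus strand) held a C/EBP motif at position 182 and a CRE core at position 264 that overlapped an E-box at position 267. The Il6ra promoter (chr3:89913147-89913446, minus strand) held a CRE core at position 15 and an E-box at position 227. Those of Ptger3 (chr3:157566626-157566925, plus strand) and Ptger4 (chr15:5244138-5244437, minus strand) held none of the 5 motifs. Of 32851 promoters of the same length, 20.8% held the CRE core, 7.15% the E-box, 0.183% the C/EBP motif, 7.81% the AP-1 motif and 13.6% the TATA box. A match describes the letters and not the binding of a factor.

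The prostaglandin receptors differed little between the libraries over all nuclei. Levels are CPM, UMIs of the gene per 1000000 UMIs of all nuclei summed, with no scaling by gene length. Ptger4 (chr15:5206661-5244187) had 43.7 CPM in US+ nuclei from 3705 UMIs, against 36.5 CPM in US- nuclei from 3606 UMIs, a ratio of 1.20 (95% interval 1.14 to 1.25). Ptger3 (chr3:157566892-157645888) had 7.07 CPM in US+ nuclei and 5.85 CPM in US- nuclei, a ratio of 1.21 (1.08 to 1.36). It was 1.06 (0.930 to 1.20) without the nuclei with striatal markers, which had 6.37 CPM in US+ and 3.61 CPM in US-. Ptger1 had 2.90 CPM in US+ nuclei and 2.91 CPM in US- nuclei, a ratio of 0.996 (0.836 to 1.18). Ptger2 had 1.86 CPM in US+ nuclei and 1.64 CPM in US- nuclei, a ratio of 1.14 (0.907 to 1.42). For Ptger1 and Ptger2 a difference was thus not detectable at this depth. Ptger1 had between 1.89 CPM (Lepr) and 4.63 CPM (Opn5) in the US+ nuclei of the Adcyap1, Opn5, Esr1 and Lepr classes, and Ptger2 between 1.34 CPM (Esr1, 0.768 to 2.18) and 3.97 CPM (Opn5, 2.05 to 6.94).

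Ptgs2, Il1r1, Il1rap, Il6ra and Tlr4 were at least 1.5-fold higher in US+ than in US- nuclei, and none of the 9 members was 1.5-fold lower. Among all 20122 genes with at least 50 UMIs, 7.67% were at least 1.5-fold higher and 3.36% at least 1.5-fold lower. The median ratio was 1.55 for the 9 members and 1.04 for all genes tested. Ptgs2 (chr1:150100031-150108227) had 1.25 CPM in US+ nuclei from 106 UMIs, against 0.293 CPM in US- nuclei from 29 UMIs, a ratio of 4.26 (2.80 to 6.67). Il6ra (chr3:89864059-89913196), which encodes the ligand-binding chain of the interleukin-6 receptor, had 1.37 CPM from 116 UMIs in US+ and 0.394 CPM from 39 UMIs in US- nuclei, a ratio of 3.47 (2.39 to 5.12). Il1rap (chr16:26581704-26730117), the accessory chain shared by receptors of the interleukin-1 family, had 76.2 CPM in US+ nuclei and 43.7 CPM in US- nuclei, a ratio of 1.74 (1.68 to 1.81), and its interval was the narrowest of the 5. Their intervals leave each of the 3 above 1.5.

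The calls of the other members lay close to the threshold. Il1r1 (chr1:40225080-40317257), the signalling receptor of interleukin-1, had 2.12 CPM in US+ nuclei and 1.35 CPM in US- nuclei, a ratio of 1.57 (1.24 to 1.97). A single US+ nucleus held 27 of its 180 UMIs, and without it the ratio was 1.33 (1.05 to 1.69). Tlr4 (chr4:66827584-66930284) had 1.10 CPM from 93 UMIs in US+ and 0.708 CPM from 70 UMIs in US- nuclei, a ratio of 1.55 (1.12 to 2.14). Scaled by TMM (edgeR) instead of the total, Il1r1 had a ratio of 1.50 just under the threshold and Tlr4 one of 1.48, so 3 members passed. The same 3 passed when the nuclei with non-neuronal markers were left out, where Il1r1 had a ratio of 1.23 and Tlr4 one of 1.48. The share of all genes that passed was not taken under either setting.

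**Figure D1:**
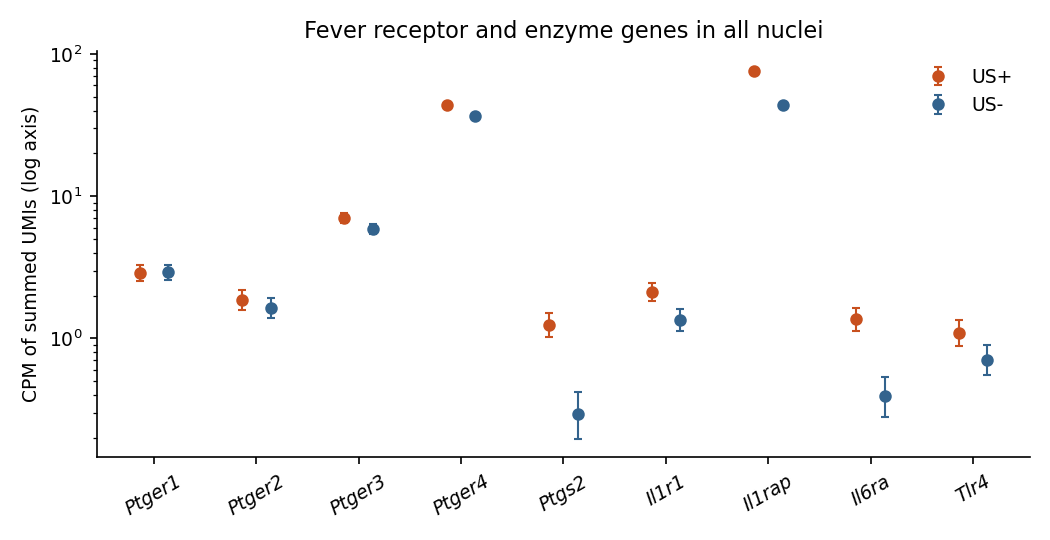
CPM of the 9 genes over all nuclei in the US+ and US- libraries, on a log axis, 1 library per point with its exact 95% interval (counting error only). Ptgs2 (1.25 CPM in US+, 0.293 CPM in US-) and Il6ra (1.37 CPM in US+, 0.394 CPM in US-) stand furthest apart, and Ptger1 overlaps.

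Split by transmitter, the members did not move alike. In GABAergic nuclei Ptgs2, Il6ra, Il1rap and Ptger3 were at least 1.5-fold higher in US+ than in US-, beside 6.83% of 18722 genes that were that much higher and 3.71% that were that much lower, and no member was lower. Ptger3 had 5.81 CPM in US+ and 3.57 CPM in US- GABAergic nuclei, a ratio of 1.63 (1.36 to 1.94). The call was lost at a ratio of 1.50 (1.23 to 1.83) without the nuclei with striatal markers, just under the threshold, and at 1.27 when every nucleus was thinned to 2000 UMIs. Il1rap had 81.4 CPM in US+ and 41.5 CPM in US- GABAergic nuclei, a ratio of 1.96 (1.87 to 2.06). Ptgs2 had 1.57 CPM in US+ and 0.378 CPM in US- GABAergic nuclei, a ratio of 4.14 (2.60 to 6.80). Il6ra had 0.94 CPM in US+ and 0.348 CPM in US- GABAergic nuclei, a ratio of 2.70 (1.60 to 4.68). Without the nuclei with striatal markers the Ptgs2 ratio was 1.87 (1.03 to 3.49).

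In glutamatergic nuclei 6 members had the 50 UMIs needed for a call, and Il1r1 alone was at least 1.5-fold higher, beside 3.16% of 14505 genes higher and 1.79% lower. Its 42 UMIs in US+ and 11 UMIs in US- gave a ratio of 3.25 (1.65 to 7.0), but 27 of the 42 lay in the 1 nucleus named above. Without it the level was 1.45 CPM in US+ and 1.24 CPM in US- glutamatergic nuclei, a ratio of 1.16 (0.499 to 2.80). Ptger3 went the other way than in GABAergic nuclei, with 9.72 CPM in US+ and 12.9 CPM in US-, a ratio of 0.755 (0.572 to 0.995). Il1rap had 68.6 CPM in US+ and 56.1 CPM in US- glutamatergic nuclei, a ratio of 1.22 (1.09 to 1.37). Il6ra had 27 UMIs in US+ and 7 UMIs in US- glutamatergic nuclei and so stayed under the 50 UMIs, with 2.60 CPM in US+ and 0.791 CPM in US-. When all nuclei with striatal markers were left out, Ptgs2, Il1rap, Il6ra and Tlr4 were at least 1.5-fold higher in US+, beside 5.88% of 19551 genes higher and 2.41% lower.

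**Figure D2:**
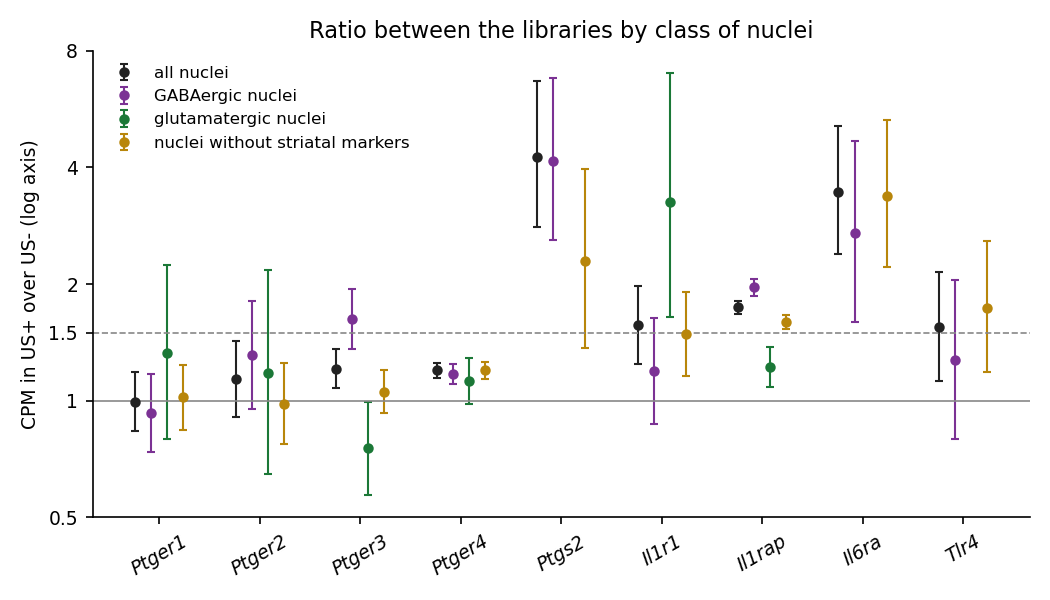
Ratio of CPM in US+ over US- for each gene, on a log axis, in all, GABAergic and glutamatergic nuclei and in nuclei without striatal markers, with exact 95% intervals (counting error only) and only where both libraries together had at least 50 UMIs. The solid line is a ratio of 1 and the dashed line 1.5; Ptger3 is above 1 in GABAergic (1.63) and below 1 in glutamatergic nuclei (0.755).

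Ptger3 differed widely between classes of nuclei. It was higher in glutamatergic than in GABAergic nuclei of both libraries, with 9.72 against 5.81 CPM in US+ and 12.9 against 3.57 CPM in US-. The ratios were 1.67 (1.32 to 2.11) in US+ and 3.61 (2.86 to 4.53) in US-. Il6ra, Tlr4 and Ptger2 were also higher in glutamatergic than in GABAergic nuclei when both libraries were summed, with ratios of 2.96 (1.90 to 4.53) for Il6ra, 2.61 (1.69 to 3.96) for Tlr4 and 1.85 (1.32 to 2.56) for Ptger2. Ptgs2 had the opposite distribution, with 3 UMIs in glutamatergic and 100 UMIs in GABAergic nuclei of both libraries, a ratio of 0.178 (0.0360 to 0.534). Ptger4 differed by less, at a ratio of 1.17 (1.09 to 1.26).

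Nuclei with UMIs of Opn5, the gene of the opsin neuropsin that marks a set of heat-regulating preoptic neurons, carried the most Ptger3 of the 4 torpor- and temperature-associated classes. They were 274 US+ and 288 US- nuclei, and Ptger3 had 21.8 CPM in them in US+ against 6.53 CPM in the other US+ nuclei, and 34.2 CPM in US- against 4.92 CPM in the other US- nuclei. The ratios were 3.35 (2.55 to 4.33) in US+ and 6.96 (5.60 to 8.60) in US-. Ptger3 was the only one of the 9 members at least 2-fold higher in these nuclei in both libraries, beside 0.755% of 20121 genes. At least 1 UMI of Ptger3 was seen in 13.9% of Opn5 nuclei in US+ and 20.8% in US-, at median depths of 9278 UMIs in US+ and 9225.5 UMIs in US-. In nuclei with at least 2 UMIs of Drd1, striatal-type neurons taken here as background, the share was 3.33% in US+ and 2.41% in US-, at median depths of 10872 UMIs in US+ and 10900 UMIs in US-. With every nucleus thinned to 2000 UMIs the shares were 4.01% in US+ and 7.99% in US- Opn5 nuclei, and 0.556% in US+ and 0.370% in US- Drd1 nuclei.

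Among Opn5 nuclei the level was higher in the glutamatergic than in the GABAergic ones. The 36 such US+ nuclei held 13 of 66 Ptger3 UMIs and the 40 such US- nuclei held 41 of 108, which gave 40.1 CPM (21.4 to 68.6) in US+ and 111 CPM (79.5 to 150) in US-. GABAergic Opn5 nuclei had 8.72 CPM in US+ and 8.56 CPM in US-. Of the Ptger3 UMIs of Opn5 nuclei that were not glutamatergic, most in each library lay in nuclei assigned to neither transmitter class. Within glutamatergic nuclei the Opn5 nuclei were 4.59-fold (2.35 to 8.27) above the others in US+ and 12.9-fold (8.56 to 19.1) in US-. Requiring at least 2 Opn5 UMIs gave 30.2 CPM in 82 US+ nuclei and 77.3 CPM in 94 US- nuclei, which was 4.44 times the level of the remaining nuclei in US+ and 15.2 times that in US-. Glutamatergic Lepr nuclei had 16.0 CPM in 58 US+ nuclei and 66.9 CPM in 39 US- nuclei. In the few nuclei with both Opn5 and Adcyap1, which encodes the neuropeptide PACAP, Ptger3 had 24.5 CPM in 28 US+ nuclei and 110 CPM in 24 US- nuclei.

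Ptger3 was lower in US+ than in US- in the Opn5, Adcyap1 and Lepr classes as a whole. These classes share nuclei, so their ratios are not independent. Nuclei with both Opn5 and Adcyap1 held 10 of the 50 Ptger3 UMIs of Adcyap1 nuclei in US+ and 33 of 58 in US-. Those with both Adcyap1 and Lepr held 6 Ptger3 UMIs in US+ and 19 in US-. Whether the Adcyap1 and Lepr ratios hold without the shared nuclei was not tested. In Opn5 nuclei the ratio of US+ over US- was 0.638 (0.462 to 0.874), in Adcyap1 nuclei 0.459 (0.308 to 0.683) and in Lepr nuclei, which carry the leptin receptor gene, 0.529 (0.354 to 0.783). Adcyap1 nuclei had 9.07 CPM in 523 US+ nuclei and 19.7 CPM in 292 US- nuclei, and Lepr nuclei 10.1 CPM in 360 US+ nuclei and 19.2 CPM in 327 US- nuclei. Split by transmitter, glutamatergic Adcyap1 nuclei had 5.19 CPM in US+ and 21.6 CPM in US-, a ratio of 0.241 (0.0859 to 0.592). GABAergic Adcyap1 nuclei had 12.3 CPM from 20 UMIs in US+ and 4.68 CPM from 4 UMIs in US-, a ratio of 2.62 (0.877 to 10.5), and GABAergic Lepr nuclei had 5.12 CPM in US+ and 4.10 CPM in US-. Without the nuclei with striatal markers the ratio was 0.526 in Opn5 nuclei, 0.555 in Adcyap1 nuclei and 0.436 in Lepr nuclei. Nuclei without the marker had the opposite direction in each case, with ratios of 1.33 without Opn5, 1.28 without Adcyap1 and 1.30 without Lepr UMIs. In glutamatergic nuclei with no Opn5 UMI, Ptger3 had 8.74 CPM in US+ and 8.60 CPM in US-, a ratio of 1.02 (0.736 to 1.40), against 0.362 (0.178 to 0.690) in glutamatergic Opn5 nuclei. Opn5 itself had 198 CPM (152 to 252) in glutamatergic Opn5 nuclei of US+ and 267 CPM (217 to 326) in those of US-. With 1 library per condition, fewer Ptger3-rich neurons in the class and less Ptger3 RNA per neuron cannot be told apart, nor can the treatment and the dissection.

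Nuclei with at least 3 UMIs of Esr1, the oestrogen receptor gene, did not share the Ptger3 pattern, with 6.64 CPM in the 1043 nuclei of US+ and 6.54 CPM in the 701 nuclei of US-. No member was at least 2-fold higher in both libraries in Adcyap1 nuclei, beside 0.785% of 20121 genes, or in Lepr nuclei, beside 0.388%. Ptger3 missed in each only through US+, where Adcyap1 nuclei were 1.31 times (0.959 to 1.75) and Lepr nuclei 1.47 times (1.05 to 2.0) the rest, against 3.64 times (2.72 to 4.78) and 3.6 times (2.77 to 4.61) in US-. Outside the thermoregulatory classes, cholinergic nuclei with Chat or Slc5a7 UMIs had 14.1 CPM of Ptger3 in US+ and 20.7 CPM in US-. In US- the level of Opn5 nuclei (34.2 CPM, 28.1 to 41.4) stood above those of cholinergic, Adcyap1 and Lepr nuclei, whose intervals overlapped one another. Drd1 nuclei, with 3.91 CPM (1.79 to 7.43) in US+ and 2.13 CPM (1.17 to 3.58) in US-, had the lowest level of these. Their interval stood apart in US-, while in US+ it overlapped those of Adcyap1 and Lepr nuclei. In US+ the intervals of cholinergic, Lepr and Adcyap1 nuclei overlapped those of the glutamatergic nuclei as a whole.

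**Figure D3:**
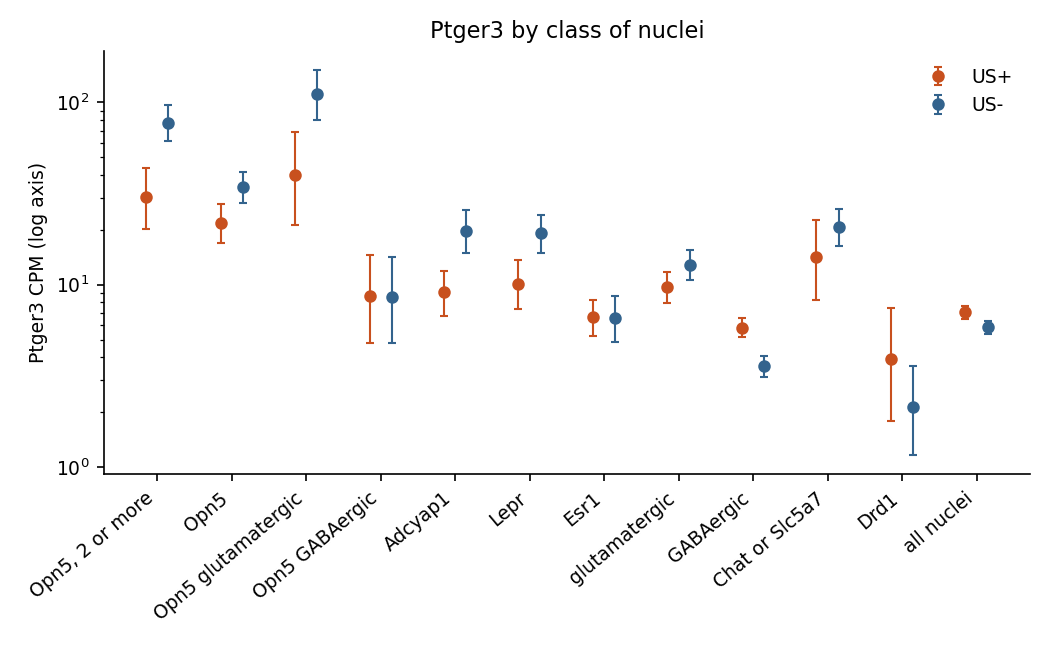
Ptger3 CPM in classes of nuclei defined by UMIs of the named gene or transmitter, on a log axis, 1 library per point with its exact 95% interval (counting error only). US+ lies below US- in Opn5 (21.8 CPM in US+, 34.2 CPM in US-), Adcyap1 and Lepr nuclei, and above it in GABAergic nuclei (5.81 CPM in US+, 3.57 CPM in US-).

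Nuclei with at least 2 Ptger3 UMIs, 118 in US+ and 99 in US-, are described by the genes with the highest fold over other nuclei, ranked by the lower of their folds in the 2 libraries. The first was Gm28526, 8.43-fold higher than in other nuclei in US+ and 15.2-fold in US-. Adcy2, which encodes an adenylyl cyclase, was 2.64-fold higher in US+ and 2.47-fold higher in US-. The secreted guidance molecules Slit1 (1.73-fold in US+, 2.46-fold in US-) and Reln (1.71-fold in US+, 2.76-fold in US-) also led, with Gpr176, Tafa1, Trpc4 and Tead1. Of these nuclei 15.3% in US+ and 24.2% in US- had an Opn5 UMI. Across 18 classes in both libraries (36 points that share nuclei and libraries), the genes whose level was most like that of Ptger3 were Rspo3, a ligand of Wnt signalling (Pearson r = 0.82 on log2(CPM + 1)), Cngb1 (0.80), Ezh1 (0.75), Golga7b (0.74) and Dvl1 (0.74). Among the other members the likeness to Ptger3 was highest for Ptger2, at 0.48, and lowest for Ptgs2, at -0.15.

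Ptger4 varied less between classes than Ptger3 or Il1rap. It had 48.3 CPM in US+ and 35.4 CPM in US- Lepr nuclei, a ratio of 1.37 (1.09 to 1.71). There were 41.2 CPM in US+ and 35.7 CPM in US- Adcyap1 nuclei, 40.7 CPM in US+ and 38.4 CPM in US- Opn5 nuclei, and 41.7 CPM in US+ and 35.7 CPM in US- Esr1 nuclei. Drd1 nuclei had 34.8 CPM in US+ and 33.5 CPM in US-. The share of nuclei with a Ptger4 UMI was 28.1% in US+ and 25.4% in US- over all nuclei, and 30.0% in US+ and 31.1% in US- in Drd1 nuclei, so the Drd1 nuclei taken as background had as high a share as the rest. Exons of Ptger4 overlap those of Ttc33 on the other strand, which Cell Ranger with the default settings of the methods tells apart by strand. The same holds for Ptger2 with Gm17173, Il1rap with Gm20319 and Il6ra with Gm42809, while Ptger3, Ptgs2, Il1r1 and Tlr4 have no such overlap. The genes that led the 698 US+ and 628 US- nuclei with at least 2 Ptger4 UMIs did so by small folds, Prima1 by 2.19-fold in US+ and 2.08-fold in US-, Oxt, the oxytocin gene, by 1.51-fold in US+ and 2.50-fold in US-, then Tacr3, Sim1, Pld5, Satb1, 4930511M06Rik and Megf10.

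Of the 4 torpor- and temperature-associated classes Il1rap was highest in Esr1 nuclei, with 153 CPM in US+ and 125 CPM in US-. This was 2.41 times (2.28 to 2.55) the level of the other US+ nuclei and 3.39 times (3.15 to 3.64) that of the other US- nuclei, and Il1rap was the only member at least 2-fold higher there in both libraries, beside 0.542% of 20121 genes. At least 1 Il1rap UMI was found in 59.4% of Esr1 nuclei in US+ and 50.8% in US-, and in 23.3% of Drd1 nuclei in US+ and 15.6% in US-. The median depth of Esr1 nuclei was 9831 UMIs in US+ and 9400.0 UMIs in US-. With every nucleus thinned to 2000 UMIs the shares were 23.3% in US+ and 20.1% in US- Esr1 nuclei, and 5.56% in US+ and 2.78% in US- Drd1 nuclei. Nuclei with at least 3 UMIs of Gal, the galanin gene, had 146 CPM in US+ and 188 CPM in US-, and nuclei with at least 3 UMIs of Pgr, the progesterone receptor gene, had 134 CPM in US+ and 70.1 CPM in US-. Opn5 nuclei had less than the rest, at 0.776 (0.665 to 0.900) of its level in US+ and 0.713 (0.578 to 0.870) in US-.

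The higher Il1rap of the US+ library was of unequal size between classes. The ratio of US+ over US- was 1.23 (1.13 to 1.33) in Esr1 nuclei, 1.12 (0.936 to 1.34) in Adcyap1 nuclei and 2.05 (1.64 to 2.58) in Lepr nuclei. Gal nuclei went the other way, with a ratio of 0.775 (0.647 to 0.929). The Il1rap ratio was 1.91 (1.73 to 2.11) in nuclei with striatal markers, with 53.3 CPM in US+ and 27.9 CPM in US-, and 1.60 (1.53 to 1.66) without them. Esr1 nuclei made up 10.5% of US+ and 6.35% of US- nuclei, and at least 1 Esr1 UMI was found in 27.9% of US+ and 18.2% of US- nuclei. How far these shares moved the ratio over all nuclei was not tested. Nuclei outside the Esr1 class, which can hold 1 or 2 Esr1 UMIs, had 63.6 CPM of Il1rap in US+ and 36.9 CPM in US-. The 1387 US+ and 889 US- nuclei with at least 2 Il1rap UMIs were led by its overlapping neighbour Gm20319 (5.44-fold in US+, 7.32-fold in US-), then Csta2, Ltbp2, Pgm5, Esr1 (2.64-fold in US+, 4.08-fold in US-), Gm45740, Gm49678 and the adhesion gene Amigo2.

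**Figure D4:**
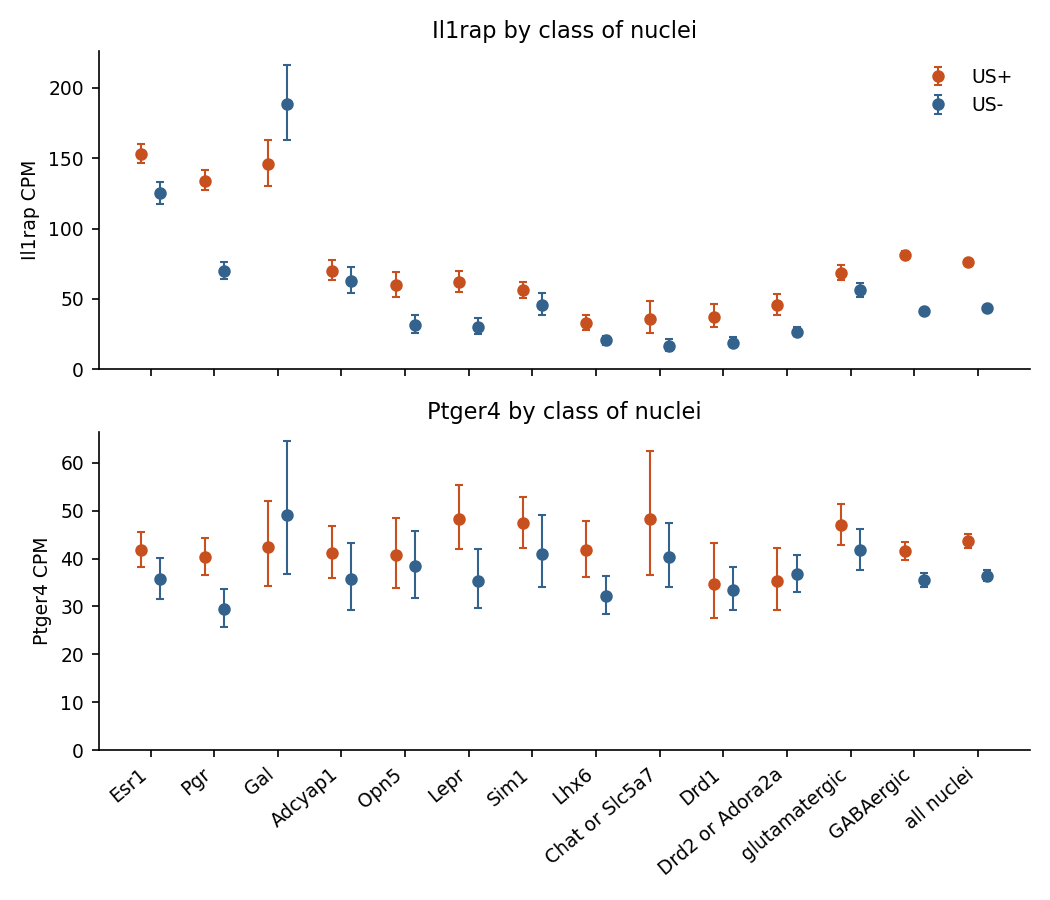
Il1rap (top) and Ptger4 (bottom) CPM in classes of nuclei defined by UMIs of the named gene or transmitter, 1 library per point with its exact 95% interval (counting error only). Il1rap ranges from 35.8 CPM in US+ and 16.6 CPM in US- cholinergic nuclei to 153 CPM in US+ and 125 CPM in US- Esr1 nuclei and higher still in US- Gal nuclei, while Ptger4 stays near its level over all nuclei (43.7 CPM in US+, 36.5 CPM in US-).

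Ptgs2 was highest in nuclei with several immediate-early genes, which neurons switch on within minutes of activity. Of 8 such genes (Fos, Fosb, Junb, Egr1, Nr4a1, Arc, Npas4 and Dusp1), the nuclei of US+ with none had 0.14 CPM of Ptgs2, those with 1 had 0.496 CPM, those with 2 had 1.96 CPM and those with 3 or more had 7.47 CPM (5.90 to 9.32). In US- the levels were 0.245, 0.137, 0.195 and 3.40 CPM (1.47 to 6.70). The 886 US+ nuclei with 3 or more early genes held 78 of the 106 Ptgs2 UMIs, 44 of them in nuclei with striatal markers. The 194 such US- nuclei held 8 of 29, while 17 of 29 lay in the US- nuclei with no early gene. The median depth was 9971.5 UMIs in US+ nuclei with 3 or more early genes and 6940.0 UMIs in those with none. Nuclei with striatal markers were 416 of the 886 US+ nuclei with 3 or more early genes and 365 of the 6419 with none. In US- they were 77 of 194 and 1923 of 8284. The parts of depth and of striatal nuclei in the pattern were not tested. Nuclei with 3 or more early genes were 8.94% of US+ and 1.76% of US- nuclei.

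**Figure D5:**
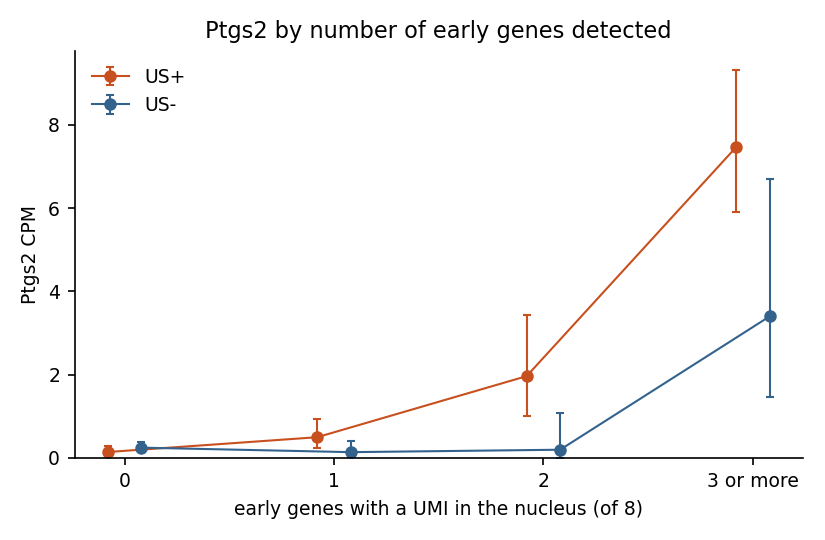
Ptgs2 CPM in nuclei grouped by how many of 8 immediate-early genes had a UMI, for the US+ and US- libraries, with exact 95% intervals (counting error only). The level is highest with 3 or more early genes, 7.47 CPM in US+ and 3.40 CPM in US-.

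The 72 US+ nuclei with a Ptgs2 UMI had a UMI of Npas4, a transcription factor gene induced by neuronal activity, in 70.8% of cases, against 14.7% of the other US+ nuclei. Nr4a1 was seen in 61.1% of them against 11.4% of the others, Arc in 52.8% against 5.35% and Fosb in 50% against 5.90%. Their median depth was 8590.0 UMIs against 7371 UMIs. Of the 26 US- nuclei with a Ptgs2 UMI, 15.4% had an Npas4 UMI, against 5.19% of the other US- nuclei. Over all nuclei 7 of the 8 early genes were at least 1.5-fold higher in US+, from Junb at 1.89-fold to Fosb at 19.8-fold (13.0 CPM in US+, 0.657 CPM in US-), and Dusp1 was at 1.23-fold.

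The Ptgs2 difference was larger in nuclei with striatal markers than in the rest. They had 3.96 CPM from 54 UMIs in US+ and 0.234 CPM from 7 UMIs in US-, a ratio of 16.9 (7.67 to 44.0). The remaining nuclei had 0.730 CPM from 52 UMIs in US+ and 0.319 CPM from 22 UMIs in US-, a ratio of 2.29 (1.37 to 3.96). Thus 1109 of 9912 US+ nuclei held about as many Ptgs2 UMIs as all the others. Opn5, Adcyap1, Esr1 and Lepr nuclei held 2, 4, 6 and 2 Ptgs2 UMIs in US+ and 1, 2, 1 and 2 in US-, too few for a comparison. Nuclei without non-neuronal markers had a Ptgs2 ratio of 4.05 (2.65 to 6.35).

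Il1r1, Il6ra and Tlr4 are known from vascular and immune cells as well as neurons, so their UMIs were counted in nuclei with markers of such cells, which the NeuN sort should have reduced. All markers of the lists were detected in both libraries, none at 0, and their summed level was 70.9 CPM in US+ and 58.5 CPM in US- for 8 endothelial genes, 37.7 CPM in US+ and 30.0 CPM in US- for 6 mural genes, and 167 CPM in US+ and 152 CPM in US- for 9 microglial genes. Single genes set these sums, namely Tek (49.4 CPM in US+, 44.4 CPM in US-) among the endothelial and Notch3 (33.9 CPM in US+, 28.2 CPM in US-) among the mural genes. Among the microglial genes it was P2ry12 (125 CPM in US+, 116 CPM in US-), which had a UMI in 53.3% of nuclei of each library. Nuclei with at least 3 microglial markers had median depths of 12838 UMIs in US+ and 13215.5 UMIs in US-. Whether these nuclei were microglia was not tested. Of the endothelial genes 7 of 8 were higher in US+, and of the mural genes 6 of 6, by larger ratios for some: Flt1 had 3.42 CPM in US+ and 1.10 CPM in US-, Cldn5 1.06 CPM in US+ and 0.172 CPM in US-, Slco1a4 1.47 CPM in US+ and 0.142 CPM in US-, and Rgs5 1.24 CPM in US+ and 0.222 CPM in US-. These genes were named after their values were seen, and the part of such RNA in the Il1r1 and Il6ra ratios beyond the nuclei left out was not tested. The sum was 106 CPM in US+ and 160 CPM in US- for 8 astrocyte genes, through Slc4a4 (80.0 CPM in US+, 146 CPM in US-), while the other 7 were higher in US+, and 50.9 CPM in US+ and 23.3 CPM in US- for 8 oligodendrocyte genes. The 40 US+ nuclei with at least 3 endothelial markers held 46 of 180 Il1r1 UMIs, a level of 111 CPM (81.3 to 148), and the 25 such US- nuclei held 2, or 4.86 CPM. The nucleus with 27 Il1r1 UMIs was one of them. It had 19213 UMIs and 7 of the 8 endothelial markers, with 3 mural, 3 microglial, 2 astrocyte and 1 oligodendrocyte marker. At least 1 UMI of a Slc17a gene placed it among glutamatergic nuclei. Whether its barcode held more than 1 nucleus was not tested. Il6ra had 24.1 CPM from 10 UMIs in the US+ nuclei with at least 3 endothelial markers. It had 7.29 CPM from 3 UMIs in such US- nuclei. Tlr4 had no UMI in either, with upper limits of 8.91 CPM in US+ and 8.97 CPM in US-.

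Without all 549 US+ and 344 US- nuclei with non-neuronal markers, Il1r1 had 1.57 CPM in US+ and 1.28 CPM in US-, a ratio of 1.23 (0.947 to 1.59), so a difference was no longer detectable. Il6ra kept 1.10 CPM in US+ and 0.370 CPM in US-, a ratio of 2.98 (1.99 to 4.54). Tlr4 had 0.999 CPM in US+ and 0.676 CPM in US-, a ratio of 1.48 (1.05 to 2.09). Adcyap1, Opn5, Esr1 and Lepr nuclei held 10, 4, 22 and 8 Il6ra UMIs in US+ and 5, 1, 4 and 1 in US-. For Tlr4 they held 6, 6, 9 and 4 UMIs in US+ and 4, 2, 9 and 3 in US-. Il6ra was alike in Adcyap1 nuclei (1.81 CPM in US+, 1.70 CPM in US-). Tlr4 was lower in US+ in Adcyap1 (1.09 CPM in US+, 1.36 CPM in US-) and Esr1 nuclei (0.756 CPM in US+, 1.18 CPM in US-), on few UMIs. A UMI of Il6ra was seen in 0.979% of all US+ and 0.335% of all US- nuclei, and one of Tlr4 in 0.787% of US+ and 0.534% of US- nuclei. In US+ Drd1 nuclei, which were deeper (median 10872 UMIs, against 7376 UMIs over all US+ nuclei), the share was 1.67% (0.345 to 4.79) for both genes, from 3 nuclei each. In US- Drd1 nuclei it was 0.556% for Tlr4, while Il6ra had 0 of 540 nuclei, which allows a share of up to 0.556%. At these counts the shares could not be told apart from background.

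The wider pathway lists were read against all genes, of which 7.67% were at least 1.5-fold higher in US+ and 3.36% lower. Of 20 prostaglandin synthesis, transport and receptor genes beside the members, 17 had at least 50 UMIs, 1 of these was at least 1.5-fold higher in US+ and none lower, and their median ratio was 1.09. The higher one was Ptgds, the prostaglandin D synthase, with 15.4 CPM in US+ and 6.61 CPM in US-, a ratio of 2.33 (2.12 to 2.56). Nuclei with at least 3 oligodendrocyte markers were 1.20% of US+ and 0.217% of US- nuclei. The part of non-neuronal nuclei in the Ptgds ratio was not tested. The most abundant in UMIs were Hpgds (53.6 CPM in US+, 50.4 CPM in US-), Ptges3 (38.3 CPM in US+, 37.4 CPM in US-) and Ptgr2 (26.8 CPM in US+, 23.7 CPM in US-). Of 21 cytokine and cytokine receptor genes 11 could be called, 1 of them higher in US+ and none lower, with a median ratio of 1.05. The higher one was Tnfrsf1b, a receptor of tumour necrosis factor, with 2.37 CPM in US+ and 1.29 CPM in US-, a ratio of 1.83 (1.46 to 2.30). The synaptic receptor-like genes Il1rapl1 (2137 CPM in US+, 2299 CPM in US-) and Il1rapl2 (509 CPM in US+, 524 CPM in US-) and Lifr (26.3 CPM in US+, 21.9 CPM in US-) had the most UMIs.

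Of 20 genes of interleukin-1, Toll-like and JAK-STAT signalling 17 could be called, 1 of them higher in US+ and none lower, with a median ratio of 1.07. It was Nfkbia, which encodes an inhibitor of NF-kappaB and is itself induced by it, with 5.61 CPM in US+ and 2.81 CPM in US-, a ratio of 2.0 (1.72 to 2.32). Nfkb1 (67.6 CPM in US+, 70.6 CPM in US-), Jak1 (59.1 CPM in US+, 56.3 CPM in US-) and Jak2 (55.7 CPM in US+, 59.8 CPM in US-) had the most UMIs. Of the cytokine genes of the list, named here after their values were seen, Il18 had 927 UMIs in US+ and 1020 in US-. Il1a had 17 UMIs in US+ and 4 in US-, a ratio of 4.95 (1.62 to 20.2), under the 50 UMIs needed for a call. Il1b had 2 UMIs in US+ and 3 in US-, Il6 had 11 in US+ and 8 in US-, and Tnf had 0 in US+ and 1 in US-.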

How the data were processed

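The POA of ultrasound-treated (US+) and sham (US-) mice was profiled by droplet single-nucleus RNA-seq (10x Genomics 3' v3.1 kit) after a NeuN sort. The deposited matrices hold counts, UMI counts per gene and nucleus, generated by the authors through Cell Ranger 6.1.1, named in the submitters' processing notes, against the mm10 genome. Per the study's methods default parameters were used, which in that version count reads on exons in the sense direction, and the libraries were equalised to the less saturated one. The counts are not scaled per nucleus. The authors' limits on genes and mitochondrial UMIs were applied with a minimum of 2000 UMIs. Doublets were not removed. UMIs were summed per library and class of nuclei (Python 3.11.15, scipy 1.17.1) and divided by the class total to give CPM. Ratios carry exact 95% intervals from the binomial split of the 2 counts, levels exact Poisson intervals. No test was run, since each condition was 1 library. A gene was called at 1.5-fold with at least 50 UMIs over both libraries, and in nuclei of a class against the rest at 2-fold in both libraries. Thinning drew 2000 UMIs from each nucleus at random.

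The members and lists were chosen with earlier results of these data known. Named genes were the 9 members, list members with at least 100 UMIs past 1.5-fold and the 3 highest per list, the 8 early genes, the 8 leading genes of nuclei with at least 2 UMIs of a member (at least 50 such nuclei per library), and the 5 genes most like Ptger3. Alternatives were other limits on nuclei and genes, other scalings (TMM from edgeR 4.0.16, size factors of DESeq2 1.42.0), stricter classes, and leaving out nuclei with striatal or non-neuronal markers. Ratios and intervals were tested on simulated Poisson counts per library. These leave out the clustering of UMIs in single nuclei, so the intervals were not tested for it. Coordinates are those of GENCODE M21 on GRCm38.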

Additional observations from a re-analysis of the deposited data

Results flagged for a closer look

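The Ptger3 ratio of US+ over US- lay on opposite sides of 1 in classes of nuclei set against each other. The ratio was 1.63 in GABAergic nuclei and 0.755 in glutamatergic nuclei. It was 0.638 in nuclei with Opn5 UMIs and 1.33 in nuclei without, 0.459 in nuclei with Adcyap1 UMIs and 1.28 in nuclei without, and 0.529 in nuclei with Lepr UMIs and 1.30 in nuclei without. The Opn5, Adcyap1 and Lepr classes share nuclei, so their ratios are not independent. With 1 library per condition these differences between classes were not tested.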

How the results depend on the processing

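No paired analysis was possible because each condition is 1 library, and no library can be left out. Over 317 alternative values no ratio past 1.5-fold or 2-fold changed direction. Among those within the threshold, the Tlr4 ratio in GABAergic nuclei was 0.659 in thinned nuclei, against 1.28, on few UMIs. Of 241 values for 27 ratios of single genes, 226 moved by less than their counting error and 15 by more. The other 76 values belong to the counts of members, the Ptgs2 ratio and the Ptger3 ratios between classes. Of these, 59 were classed as unchanged and 17 as moved. The counts of members carry no counting error, so that range was not the measure for them. The 5 members at or past 1.5-fold between US+ and US- became 3 with TMM, 3 with DESeq2 size factors, 3 with nuclei thinned to 2000 UMIs, 3 without nuclei with non-neuronal markers, and 2 at 2-fold. The share of all genes passing was not taken under these settings, so these counts cannot be set against it. The Ptgs2 ratio ranged from 2.29, without nuclei with striatal markers, to 4.55, and the Tlr4 ratio from 1.11, in thinned nuclei, to 1.74. For Ptger3, stricter transmitter classes gave glutamatergic over GABAergic ratios of 3.15 in both libraries together, against 2.48, and of 2.30 in US+. The ratio of Opn5 nuclei over the rest, 4.98 in both libraries together, 3.35 in US+ and 6.96 in US-, was 9.31, 4.44 and 15.2 with at least 2 Opn5 UMIs, 8.97, 4.59 and 12.9 within glutamatergic nuclei, and 1.97, 1.53 and 2.49 within GABAergic nuclei. The Ptger3 ratio of US+ over US- ranged from 0.391 to 0.667 in Opn5 nuclei, from 0.443 to 0.660 in Adcyap1 nuclei, from 0.436 to 0.619 in Lepr nuclei and from 1.27 to 1.71 in GABAergic nuclei. Leaving out the nucleus with most Il1r1 UMIs, and the US+ over US- ratio in nuclei with at least 2 Opn5 UMIs, were chosen after seeing the data. Depth limits Ptgs2, Il6ra, Tlr4, Il1r1, Ptger1 and Ptger2, the members with the fewest UMIs.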
